A study of Mus musculus with 68 samples.

Results

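The trophectoderm (TE) is the outer layer of the blastocyst and founds the placenta, whereas the inner cell mass (ICM) founds the embryo proper. The 10 genes that the field uses to follow this lineage, Cdx2, Gata3, Tfap2c, Tfap2a, Eomes, Elf5, Krt8, Krt18, Id2 and Hand1, were taken by name from every deposited gene table. They are 10 of the 24421 gene symbols that each table lists, and all 10 were listed in each of the 68 libraries. The list is one of names, with no threshold on a measured value, and it was drawn up with earlier results of these data known.

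The study sequenced polyadenylated RNA by Smart-seq2, an amplification protocol for small cell numbers, from mouse embryos made by somatic cell nuclear transfer (SCNT) and from fertilized blastocysts. In SCNT the nucleus of a donor cell, here a cumulus cell (CC), is placed in an enucleated oocyte. The SCNT series had 3 CC libraries and 53 embryo libraries, namely 6 each at 6 h post activation (hpa), 14 hpa, the early 2-cell (E2C), late 2-cell (L2C) and 8-cell (8C) stages, the morula, and the ICM and TE of the blastocyst, and 5 at the 4-cell (4C) stage. The fertilized series had 2 ICM and 2 TE libraries each of control embryos, of embryos injected as zygotes with a morpholino against Max (Max MO) and of embryos injected with one against Mcrs1 (Mcrs1 MO).

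Per the labels, the oocyte donors for SCNT were BDF1 mice. Per the study's methods, the fertilized zygotes came from C57BL/6j matings, so strain and kind of embryo cannot be told apart between the series. The controls are titled control and their treatment is labelled as untreated, whereas the study describes them as injected with a random control morpholino, at a higher concentration than either targeting one, so dose and target cannot be told apart. A morpholino blocks translation or splicing of its target without altering the gene, and MAX, the dimer partner of the MYC proteins, and MCRS1, a subunit of chromatin complexes, were the targets. A library was made from 10 blastomeres, and ICM and TE cells were pulled apart by hand according to size and position. The labels name no separate cultures, so each p-value measures only the spread between these libraries. In bulk RNA of this kind fewer cells of a type and less RNA per cell cannot be told apart.

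In the mouse, the TE programme begins in the outer cells of the morula, where inactive Hippo signalling lets YAP and TEAD4 switch on Cdx2 and Gata3. CDX2, a caudal homeobox factor, and GATA3, a zinc finger factor, drive trophoblast genes in parallel. TFAP2C and TFAP2A are AP-2 factors, of which TFAP2C is also a maternal product and acts upstream of polarity and of Cdx2. EOMES, a T-box factor, and ELF5, an ETS factor, act later to maintain trophoblast stem cells. ID2 is a helix-loop-helix inhibitor that marks early TE, HAND1 is a helix-loop-helix factor of trophoblast giant cells, and KRT8 and KRT18 are the paired keratins of the TE epithelium.

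On mm10, Cdx2 lies at chr5:147300900-147307249 on the minus strand, Gata3 at chr2:9857078-9878600 on the minus strand and Elf5 at chr2:103412098-103450988 on the plus strand. Krt8 (chr15:101996711-102004342, minus) and Krt18 (chr15:102028216-102032026, plus) are neighbours that are transcribed away from each other, with 23873 bases between them. Tfap2c, Tfap2a, Eomes, Id2 and Hand1 lie on chromosomes 2, 13, 9, 12 and 11. Antisense genes overlap Gata3, Eomes and Tfap2a in the annotation, and Krt8 has a named pseudogene and an overlapping noncoding gene. The kit does not mark strand, so reads of these partners could not be separated from those of the members.

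The promoters of the 2 factors and 2 keratins that the results turn on are shown, since Max is the factor that binds the E-box CACGTG and members of the AP-2 and GATA families are themselves among the genes followed. Each run covers 250 bases before to 50 bases after the RefSeq start on GRCm38.p6, written 5′ to 3′ along the gene's own strand. Capitals mark matches, on either strand, to the AP-2 motif GCCNNNGGC or the GATA motif AGATAA. The windows are chr5:147307200-147307499 for Cdx2, chr2:9878551-9878850 for Gata3, chr15:102004293-102004592 for Krt8 and chr15:102027966-102028265 for Krt18.
Cdx2: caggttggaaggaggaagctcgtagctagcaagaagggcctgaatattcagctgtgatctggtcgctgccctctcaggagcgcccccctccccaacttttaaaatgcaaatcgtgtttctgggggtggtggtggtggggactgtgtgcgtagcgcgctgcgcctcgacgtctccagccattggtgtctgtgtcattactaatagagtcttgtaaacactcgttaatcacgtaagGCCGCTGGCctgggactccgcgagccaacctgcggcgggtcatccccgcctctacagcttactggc
Gata3: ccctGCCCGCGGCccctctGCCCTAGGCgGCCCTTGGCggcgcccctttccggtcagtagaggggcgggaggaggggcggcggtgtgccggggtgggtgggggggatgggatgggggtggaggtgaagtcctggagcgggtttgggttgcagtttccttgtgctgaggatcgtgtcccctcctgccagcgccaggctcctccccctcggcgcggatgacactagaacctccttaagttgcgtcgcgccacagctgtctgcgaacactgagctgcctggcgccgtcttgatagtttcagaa
Krt8: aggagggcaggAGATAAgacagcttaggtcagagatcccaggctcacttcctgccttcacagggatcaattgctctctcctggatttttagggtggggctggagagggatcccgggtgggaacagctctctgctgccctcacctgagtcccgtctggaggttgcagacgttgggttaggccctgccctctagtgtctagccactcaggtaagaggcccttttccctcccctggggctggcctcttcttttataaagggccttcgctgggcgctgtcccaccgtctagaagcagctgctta
Krt18: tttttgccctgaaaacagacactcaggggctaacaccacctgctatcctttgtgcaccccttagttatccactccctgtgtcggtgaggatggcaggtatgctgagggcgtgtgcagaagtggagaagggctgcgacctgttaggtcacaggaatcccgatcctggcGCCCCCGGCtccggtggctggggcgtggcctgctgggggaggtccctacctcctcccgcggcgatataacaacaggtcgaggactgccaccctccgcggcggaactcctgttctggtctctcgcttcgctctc

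Promoters were available for 8 of the genes, 10 in all, and not for Tfap2c or Hand1. The promoter of Tfap2c, the member called below after each morpholino, was thus not searched for any motif. CACGTG was in none of the 10 windows, against 7.15% of 32851 mouse promoters of this length, and the TEAD motif GGAATG was in 1, an Elf5 promoter, against 14.7% of all. GCCNNNGGC was in 3 windows, those of Cdx2, Gata3 and Krt18, against 16.6% of all promoters. AGATAA was in 1 window, that of Krt8, against 11.2%. A match of this kind is a string of letters and was not tested as a binding site.

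The labelled cell types were checked with lists of 10 markers each, summed in TPM (length-scaled transcript abundance as deposited). The TE list includes Cdx2, Gata3, Krt8 and Krt18. It summed to 7449 to 17786 TPM in SCNT TE and to 2053 to 9309 TPM in SCNT ICM, so these ranges overlap. Without the 4 members the sums were 1609 to 2343 TPM in SCNT TE and 134 to 1284 TPM in SCNT ICM, with no overlap. The ICM list summed to 525 to 1500 TPM in SCNT ICM and to 126 to 490 TPM in SCNT TE, without overlap. Cumulus markers summed to 776 to 1420 TPM in CCs and to at most 60.9 TPM in any embryo group.

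Several libraries stood apart. Control ICM replicate 1 held 18700 TPM of TE markers, close to the 21005 and 24648 TPM of control TE, together with 1806 TPM of ICM markers, whereas control ICM replicate 2 held 401.1 and 3247 TPM. Over all listed genes outside the members, the former correlated at r = 0.945 and 0.949 with the control TE libraries and at 0.910 with control ICM replicate 2. The latter correlated at 0.898 and 0.913 with the control TE libraries. Results of the members that rest on the control ICM are therefore given with and without replicate 1. Without it the control ICM is 1 library that is assumed to vary like the other groups. The TE list includes Cdx2, Gata3, Krt8 and Krt18, so results of these genes without replicate 1 are no independent test. Without these genes the list summed to 2761 TPM in replicate 1 and 54.2 TPM in replicate 2. SCNT ICM replicates 1 to 3 held 6177 to 6771 genes at 1 TPM or more, against 9011 to 10032 in replicates 4 to 6. Aligned sequence ranged from 1.00 to 5.17 gigabases per library, a measure of depth that sets no exact counting error here because read counts were not analysed. No files held identical values.

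In SCNT embryos the 10 genes appeared in a staggered order. Tfap2c and Id2 were present from 6 hpa, the keratins came next, Gata3 dipped at 4C and rose again at 8C, Cdx2 and Eomes appeared in the morula, and Elf5 and the lasting signal of Tfap2a in the blastocyst. Tfap2a had also reached 3.21 TPM in a 14 hpa library and 2.57 TPM in an E2C library. Onset was taken as the first stage at which over 50% of libraries held at least 1 TPM, provided that every later stage up to TE did too. By this rule 5 of the 10 genes had an onset at or before 8C, and Hand1 had none because it fell below 1 TPM again in TE. At 0.5 TPM the onset of Gata3 moved to 6 hpa and that of Krt18 to 14 hpa. At 5 TPM that of Tfap2c moved to 4C, those of the keratins to 8C, that of Gata3 to the morula and those of Cdx2 and Eomes to TE, and Tfap2a and Elf5 had none.

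In the donor CCs, Id2 was by far the most abundant of the 10, at 1526, 1317 and 1100 TPM, and Krt8 and Krt18 stood at 109 to 275 TPM and 113 to 198 TPM. The other 7 genes were below 0.5 TPM in every CC library. After transfer, at 6 hpa, Krt8 held a median of 0.221 TPM and Krt18 0.388 TPM, and Id2 stood at 8.75 to 19.3 TPM. Gata3 and Tfap2c showed the opposite order, with 20.1, 42.3 and 51.3 TPM (lowest, median, highest) for Gata3 and 10.1, 10.97 and 15.2 TPM for Tfap2c at 6 hpa. These 2 were thus far above the CCs, which they did not overlap, at a time when oocyte markers summed to 3987 to 7882 TPM. CCs were not part of the test.

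**Figure D1:**
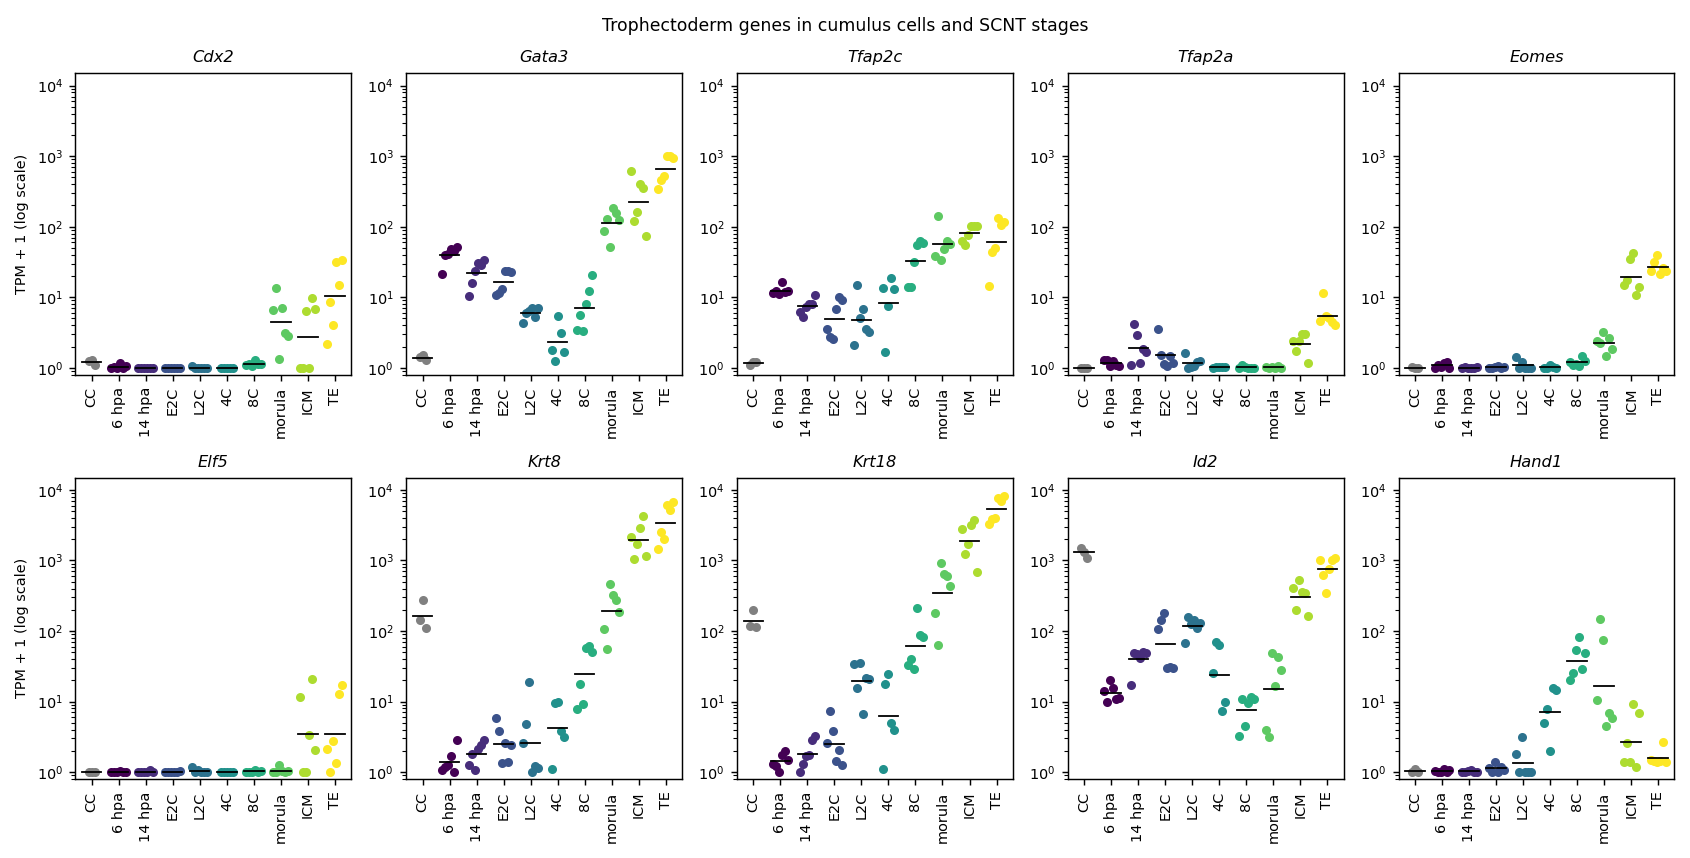
TPM + 1 of each gene on a log axis in CCs and at each SCNT stage up to ICM and TE, one point per library, with a bar at the mean of the log2 values of each group. Cdx2 and Eomes leave the floor in the morula, Gata3 dips at 4C with a median of 0.802 TPM and reaches a median of 727 TPM in TE, and Hand1 peaks at 8C with a median of 37.5 TPM.

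Consecutive stages were compared by limma on log2(TPM + 1), with a gene called when its Benjamini-Hochberg adjusted p was under 0.05 and its change at least 2-fold. Tfap2a was under the filter on low values in the SCNT libraries, so 9 of the 10 genes were tested among 11867. All 9 were called in at least 1 of the steps from 6 hpa to TE. Many genes change at these steps, and each count is given beside the share of all tested genes called in the same direction.

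From 6 to 14 hpa, Id2 was the 1 gene of the 9 that rose, when 6.14% of all genes did, and none fell, when 4.94% did. Its median went from 11.6 to 47.1 TPM, a log2 change of 1.60 (limma adjusted p = 0.0392). In 14 hpa, only replicate 1 at 16.3 TPM lay within the 6 hpa range of 8.75 to 19.3 TPM. None of the 9 was called from 14 hpa to E2C, when 2.78% of genes rose and 3.05% fell (limma, 2121 of all 11867 genes had an unadjusted p under 0.05, but 0 of the 9).

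At E2C, 4 of the genes had separate ranges in replicates 1 to 3 and in replicates 4 to 6, a split made after the values were seen and not tested. Id2 stood at 105 to 179 TPM in replicates 1 to 3 and at 29.1 to 29.5 TPM in replicates 4 to 6, whereas Gata3 stood at 9.70 to 12.2 TPM in the former and 22.1 to 22.8 TPM in the latter. Tfap2c followed Gata3, at 1.56 to 2.54 and 5.77 to 9.13 TPM, and Krt18 followed Id2, at 1.57 to 6.23 and 0.242 to 1.04 TPM. The labels do not name what separates them.

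From E2C to L2C, the time of major zygotic genome activation, Krt18 rose and Gata3 fell, when 23.7% of all genes rose and 11.2% fell. Krt18 went from 0.242, 1.31 and 6.23 TPM (lowest, median, highest) to 5.76, 20.2 and 34.2 TPM, a log2 change of 2.96 with a standard error of 0.57 (limma adjusted p = 3.24e-05), and the stages overlapped only at the edge. Krt8, its filament partner, held a median of 0.912 TPM at L2C and was not called. Gata3 went from 9.70, 17.2 and 22.8 TPM to 3.31, 5.20 and 6.12 TPM without overlap (log2 change −1.48, limma adjusted p = 0.00445).

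From L2C to 4C, Hand1 rose and Gata3, Krt18 and Id2 fell, when 11.8% of genes rose and 26.6% fell. Hand1 was at 0 TPM in the median L2C library and held 4.04, 6.94, 0.988, 14.8 and 13.7 TPM in the 5 4C libraries (log2 change 2.42, limma adjusted p = 0.000608). Of these, 4 were above the highest L2C library at 2.11 TPM. Gata3 held 0.802, 0.241, 4.48, 2.07 and 0.671 TPM at 4C, with the lowest median of any stage (log2 change −1.37, limma adjusted p = 0.0111). Id2 spread from 6.32 to 69.5 TPM at 4C and Krt18 from 0.106 to 23.5 TPM, so both overlapped with L2C (log2 changes −2.29 and −1.66, limma adjusted p = 0.00084 and 0.0206).

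The step to 8C was the broadest one for these genes before the blastocyst. Gata3, Tfap2c, Krt8, Krt18 and Hand1 rose, 5 of 9, when 11.5% of all genes rose, and Id2 fell, when 8.23% fell. The median log2 change of the 9 was 1.64, and that of all genes 0.0358. The fall of Id2 was not seen in replicates 4 to 6 alone (log2 change 0.33, limma adjusted p = 0.53). In replicates 1 to 3 alone 4 of the 5 rises were not called, with log2 changes of 0.79 for Gata3, 1.19 for Krt8, 1.75 for Tfap2c and 2.11 for Krt18 (limma adjusted p = 0.388, 0.355, 0.0938 and 0.0893). At 8C these 4 genes were higher in each of replicates 4 to 6 than in any of replicates 1 to 3, for example Krt8 at 48.8 to 59.6 TPM against 6.83 to 16.6 TPM. Krt18 held 27.9, 59.9 and 208 TPM at 8C (lowest, median, highest), all above the highest 4C library (log2 change 3.32, limma adjusted p = 4.55e-05). Krt8 held 6.83, 32.7 and 59.6 TPM (2.55, limma adjusted p = 0.00199), and Tfap2c 13.2, 42.2 and 60.7 TPM (1.98, limma adjusted p = 0.00397). Hand1 reached 18.9, 37.5 and 81.2 TPM, above every 4C library (2.42, limma adjusted p = 0.00193). Gata3 returned to 2.33, 5.85 and 19.9 TPM (1.64, limma adjusted p = 0.00626).

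Cdx2, at 0.0547 to 0.298 TPM, and Eomes, at 0.0543 to 0.459 TPM, were below 1 TPM in all 8C libraries. In the morula 4 of the 9 rose, Gata3, Krt8, Krt18 and Cdx2, when 8.74% of genes rose, and none fell, when 3.48% of genes did. Gata3 went to 51.0, 126 and 186 TPM, with no overlap with 8C and a log2 change of 3.99 (limma adjusted p = 1.75e-09). Cdx2 went to 0.348, 3.87 and 12.6 TPM, all above 8C, a log2 change of 1.96 (limma adjusted p = 0.00372). Krt8 and Krt18 reached medians of 231 and 522 TPM (2.95 and 2.49, limma adjusted p = 0.000325 and 0.00163). Eomes reached 0.485 to 2.20 TPM, a change of 0.91 that passed the p but not the fold (limma adjusted p = 0.00543).

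Morula libraries were uneven among themselves. Hand1 was at 149 TPM in replicate 2 and 74.7 TPM in replicate 3, but at 3.46 to 9.48 TPM in the other 4. Replicate 2 also held the most Cdx2 (12.6 TPM) and Tfap2c (140 TPM) and the least Krt8 and Krt18 (55.3 and 62.0 TPM). Replicate 3 held the least Cdx2 (0.348 TPM) and the most Krt18 (908 TPM).

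The path from morula to TE carried the largest changes. Gata3, Eomes, Elf5, Krt8, Krt18 and Id2 rose, 6 of 9, when 11% of all genes rose, and Hand1 fell, when 10.8% fell. Id2 went from a median of 21.3 TPM in the morula to 892 TPM in TE (log2 change 5.65, limma adjusted p = 9.87e-12) and Eomes from 1.33 to 24.1 TPM (3.59, limma adjusted p = 3.91e-17), both without overlap. Krt8 and Krt18 reached medians of 3845 and 5458 TPM (4.18 and 3.93, limma adjusted p = 2.17e-07 and 3.65e-07). Hand1 went to 0.387, 0.424 and 1.67 TPM, below every morula library (−3.39, limma adjusted p = 4.71e-06). Cdx2 changed by 1.21 without passing the test (limma adjusted p = 0.0601).

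The libraries labelled SCNT ICM shared most of this rise. TE markers outside the members summed to 134 to 1284 TPM in them, against 153 to 303 TPM in the morula and 1609 to 2343 TPM in SCNT TE. The part of TE cells in the ICM libraries was not tested. Against the morula, Eomes, Elf5, Krt8, Krt18 and Id2 rose in SCNT ICM as well, 5 of 9, when 8.96% of genes rose, and Hand1 fell, when 15% did. The log2 changes were 3.13, 1.71, 3.38, 2.45 and 4.36, and −2.63 for Hand1. In replicates 4 to 6 alone the change of Hand1 was −0.41 and not called (limma adjusted p = 0.594). Both comparisons share the morula libraries. Cdx2 had a change of −0.69 (limma adjusted p = 0.325) and Gata3 one of 0.98 (limma adjusted p = 0.0837) in ICM.

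The steps around genome activation move with the scaling of the tables. Rescaling TPM over the annotated genes shifted the median change of all genes from L2C to 4C from −0.33 to −0.572 and from 4C to 8C from 0.0358 to −0.208, and the share of calls that were higher at 8C went from 58.4% to 31.8%. It also took that share at L2C from 67.9% to 79%. Quantile normalization took it to 48.5% at L2C, to 50.6% at 4C from 30.8%, to 49.2% in the morula from 71.5% and to 54.6% from 72.4% for SCNT TE against ICM. No member called at a step changed direction under either scaling, and quantile normalization ended the calls of Gata3 and Krt18 from L2C to 4C (limma adjusted p = 0.306 and 0.0569). Leaving out 1 replicate number ended calls of Id2 at 14 hpa and 8C, Gata3 at 4C and 8C, Krt18 at 4C and Elf5 in TE and ICM.

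The next question was how far TE and ICM of SCNT blastocysts differ in these genes. Cdx2 and Gata3 were higher in TE, 2 of the 9 tested, when 3.87% of all genes were higher and 1.47% lower. The median log2 change of the 9 was 0.80, and that of all genes 0.0835. Krt18, Id2, Krt8 and Eomes had positive changes that did not pass the test, and Tfap2c, Elf5 and Hand1 changes near or below 0.

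Cdx2 was listed at 0 in ICM replicates 1, 2 and 4 and held 5.32, 8.90 and 5.84 TPM in replicates 3, 5 and 6. In TE it held 1.14, 7.48, 3.004, 31.0, 13.7 and 33.1 TPM in replicates 1 to 6. The 3 highest libraries were all TE, and the other TE libraries overlapped with ICM. The log2 change was 1.90 with a standard error of 0.48 (limma adjusted p = 0.011).

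Gata3 held 608, 120, 159, 403, 352 and 72.7 TPM in ICM replicates 1 to 6, and 340, 464, 521, 1016, 1014 and 933 TPM in TE. TE replicates 4 to 6 were above every ICM library, and ICM replicates 1, 4 and 5 lay inside the TE range. The log2 change was 1.56 with a standard error of 0.43 (limma adjusted p = 0.0203).

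Both keratins were abundant in both lineages. Krt18 ranged from 679 to 3692 TPM in ICM, with a median of 2258, and from 3309 to 8221 TPM in TE, with a median of 5458 (log2 change 1.48, limma adjusted p = 0.122). Krt8 ranged from 1061 to 4320 TPM in ICM and from 1455 to 6849 TPM in TE (0.80, limma adjusted p = 0.538). Id2 ranged from 162 to 532 TPM in ICM and from 341 to 1089 TPM in TE (1.30, limma adjusted p = 0.164). For Krt8 and Id2 the top ICM libraries reached into the TE range, and for Krt18 only ICM replicate 5 did. Within replicates 1 to 3 Krt18 did not overlap, at up to 2808 TPM in ICM and from 3309 TPM in TE. The same held within replicates 4 to 6, at up to 3692 TPM in ICM and from 6957 TPM in TE.

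Eomes spread from 9.60 to 41.3 TPM in ICM, around its TE range of 20.03 to 38.3 TPM (0.47, limma adjusted p = 0.284). Tfap2c spread the other way, from 13.3 to 133 TPM in TE and from 54.0 to 103 TPM in ICM (−0.41, limma adjusted p = 0.782). In replicates 1 to 3 every TE library, at 13.3 to 49.3 TPM, was below ICM, at 54.0 to 75.2 TPM. In replicates 4 to 6 every TE library, at 103.1 to 132.5 TPM, was above ICM, at 101.6 to 102.6 TPM. Elf5 ran from 0 to 19.98 TPM in ICM and from 0 to 16.1 TPM in TE, a log2 change of 0.00 (limma adjusted p = 1). Tfap2a could not be tested under the filter in the fit of all SCNT libraries. Its 6 TE libraries, at 3.05 to 10.3 TPM, were all above its 6 ICM libraries, at 0.162 to 1.996 TPM.

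**Figure D2:**
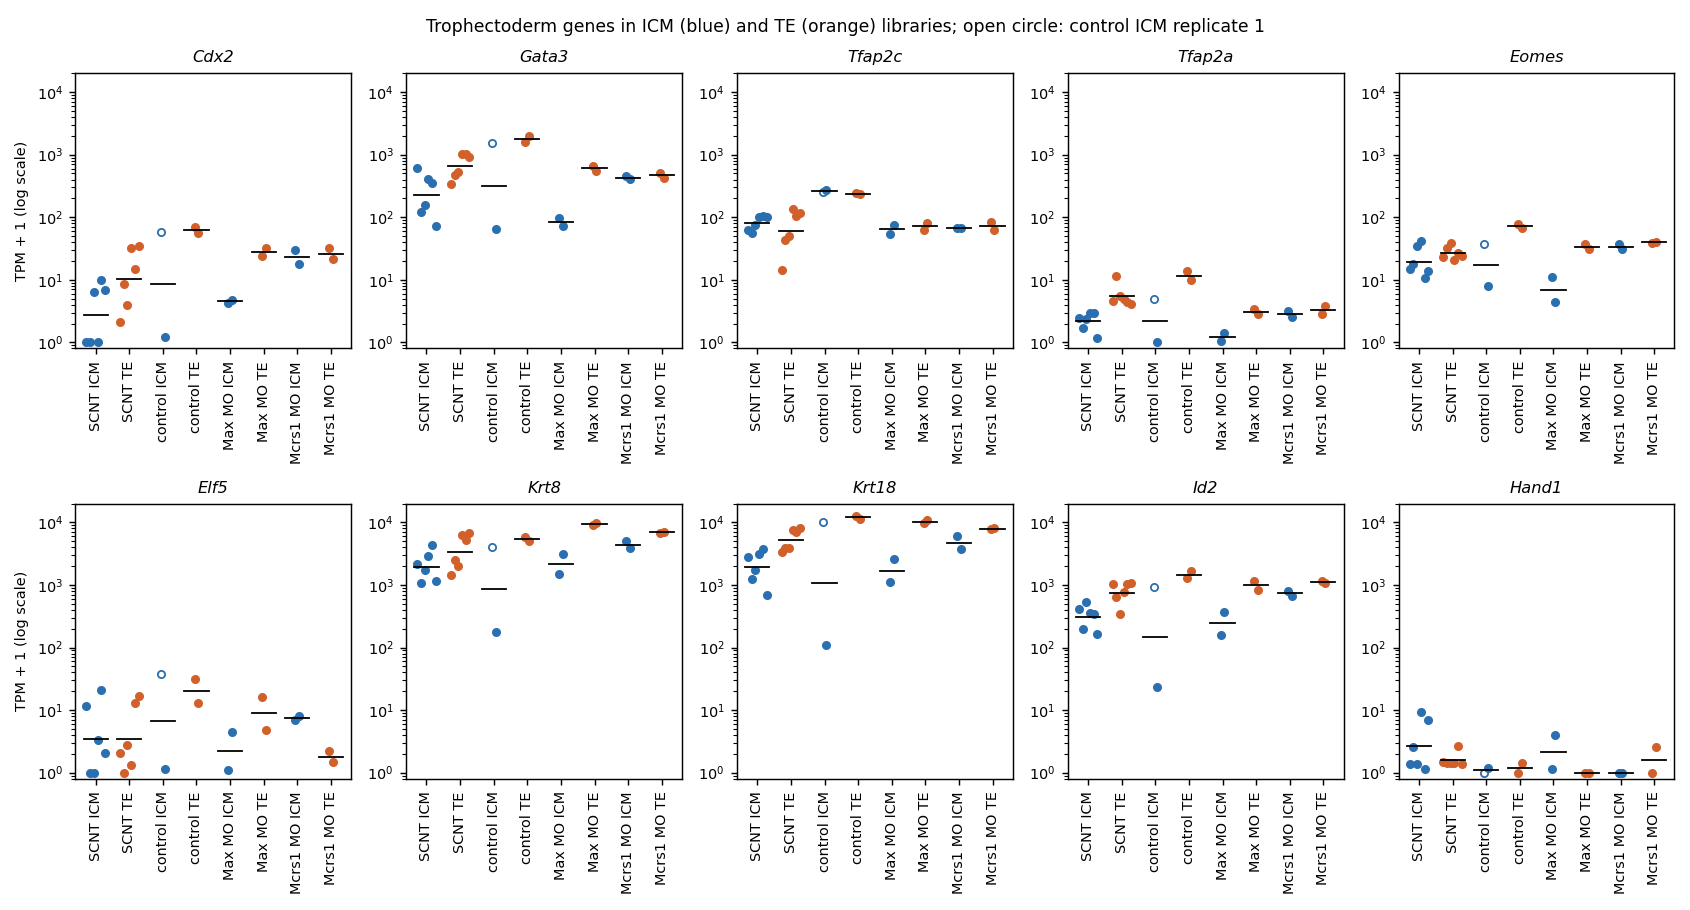
TPM + 1 of each gene on a log axis in ICM (blue) and TE (orange) of SCNT and of fertilized blastocysts, one point per library, with a bar at the mean of the log2 values and an open circle for control ICM replicate 1. Tfap2a separates SCNT ICM (up to 1.996 TPM) from SCNT TE (from 3.05 TPM) with no overlap, and the upper control ICM point of most genes is replicate 1, for example 10274 TPM of Krt18 against 108 TPM in replicate 2.

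The calls for Cdx2 and Gata3 rested on part of the libraries. In SCNT TE, Cdx2, Gata3, Tfap2c, Krt8 and Krt18 were higher in each of replicates 4 to 6 than in any of replicates 1 to 3. Aligned sequence was 2.15 to 2.58 gigabases in TE replicates 1 to 3 and 3.87 to 4.28 gigabases in TE replicates 4 to 6. The part of depth was not tested. In replicates 4 to 6 alone, 5 of the genes were higher in TE (Cdx2, Gata3, Krt18, Id2 and Krt8), when 3.46% of all genes were, with log2 changes of 2.63, 2.17, 1.93, 1.80 and 1.31. In replicates 1 to 3 alone 1 was higher, when 7.21% of genes were. This was Tfap2a, which passed the filter in these libraries, and Cdx2 and Gata3 were not called (limma adjusted p = 0.308 and 0.361). Neither was called when SCNT ICM replicates 1 to 3, the libraries with few detected genes, were left out (limma adjusted p = 0.172 and 0.056). Cdx2 was also lost without replicate 2 or 4, and Gata3 without replicate 2, 3, 5 or 6, with limma adjusted p from 0.0502 to 0.170.

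In other trophectoderm-associated genes, 7 of 16 tested were higher in SCNT TE and none was lower. Among those higher were Lrp2, an endocytic receptor (log2 change 2.39, limma adjusted p = 5.88e-06), Gata2, a relative of Gata3 (2.28, 5.49e-05), and Fgfr2, the receptor through which TE receives FGF4 (1.89, 0.00444). Among 9 tested paralogs of the members, Gata2 was higher and Id3 lower (−2.68, limma adjusted p = 0.0359). None of 11 tested genes upstream of Cdx2 in the Hippo, TEAD and Notch pathways and none of 4 tested later trophoblast genes passed the test. Beside the shares of all genes given above for the same steps, 6 of the 16 TE-associated genes rose at L2C and 3 fell at 4C, 8 rose and 1 fell at 8C, 8 rose in the morula, 7 rose from morula to TE, and 4 rose and 2 fell from morula to ICM. These counts were 0 in either direction at 14 hpa and E2C by limma, with 1 and 3 of the 16 at an unadjusted p under 0.05.

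Fertilized control blastocysts gave the same comparison with 2 libraries a side. None of the 9 tested genes was called in TE against ICM by limma, when 2.92% of all 11219 genes were called in either direction, and 7 of the 9 had an unadjusted p under 0.05, as did 2465 of all genes. Hand1 was under the filter there, at no more than 3.002 TPM in any fertilized library. Control ICM replicate 1 stood near control TE in Cdx2, Gata3, Krt18 and Elf5, and between control TE and replicate 2 in Eomes and Tfap2a. Without it the TE to ICM changes of all tested genes but Tfap2c were higher, but this fit has 1 control ICM library. Replicate 1 was also set apart partly by Cdx2, Gata3, Krt8 and Krt18, so their changes without it are no independent test.

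Cdx2 held 68.3 and 54.6 TPM in control TE, and 57.7 and 0.222 TPM in control ICM replicates 1 and 2. Krt18 held 12846 and 11171 TPM in control TE, and 10274 and 108 TPM in the ICM. Id2 held 1287 and 1666 TPM against 929 and 22.4 TPM. For each, ICM replicate 1 stood near TE and replicate 2 far below it.

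The log2 changes were 2.87 for Cdx2, 3.50 for Krt18 and 3.31 for Id2 with both ICM libraries (limma adjusted p = 0.21, 0.186 and 0.137). They became 5.67, 6.78 and 5.97 without ICM replicate 1 (limma adjusted p = 2.16e-05, 2.06e-06 and 4.94e-06). Gata3, at 1582 and 1979 TPM in TE and 1509 and 63.7 TPM in ICM, went from 2.50 to 4.77 (limma adjusted p = 0.171 and 5.09e-07). Eomes, at 77.0 and 66.4 TPM against 35.7 and 7.05 TPM, went from 2.08 to 3.17 (0.0867 and 0.00108).

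Tfap2c was the exception in both settings. It held 240 and 230 TPM in control TE and 248.8 and 268 TPM in control ICM, a log2 change of −0.14 (limma adjusted p = 0.791), and of −0.19 without ICM replicate 1 (0.667). Elf5 held 30.4 and 12.1 TPM in TE and 36.4 and 0.159 TPM in ICM, and went from a log2 change of 1.62 to 4.13 without replicate 1 (limma adjusted p = 0.508 and 0.0114). Tfap2a held 12.6 and 8.87 TPM against 3.99 and 0 TPM and went from 2.37 to 3.53 (limma adjusted p = 0.0917 and 0.00252). Of the 16 other TE-associated genes, 1 was called with both ICM libraries, Lrp2 (2.51, limma adjusted p = 0.0316, and 3.38 without replicate 1, 0.000222).

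**Figure D3:**
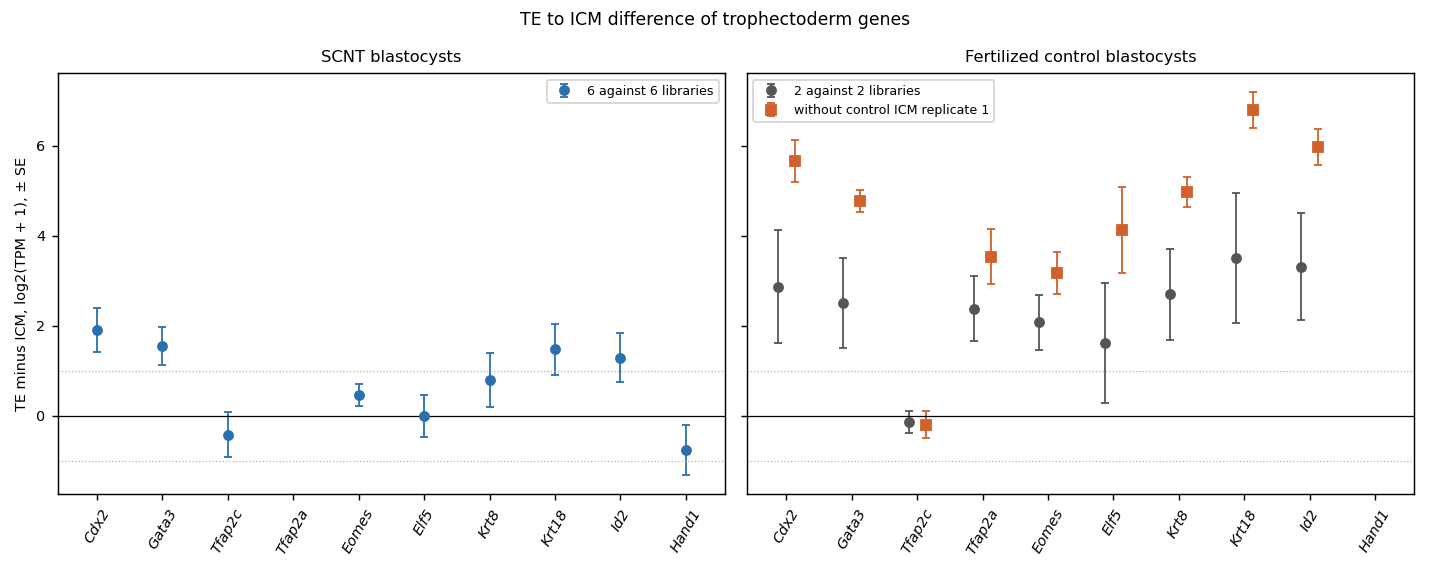
Log2 change of each gene between TE and ICM with its standard error, in SCNT blastocysts, in control blastocysts, and in control blastocysts without ICM replicate 1. Krt18 stands at 1.48, 3.50 and 6.78 in the 3 settings, whereas Tfap2c stays at −0.41, −0.14 and −0.19.

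Whether the lineage difference itself differed between SCNT and control embryos was tested by an interaction term over the 24 libraries of both experiments. None of the 10 genes was called, when 0% of all genes were called in either direction (limma, 472 of 10911 genes had an unadjusted p under 0.05). In simulated data this term recovered 10% of log2 changes of 2 and 21% of log2 changes of 3, so the lack of calls says little. The differences ran from −0.28 for Tfap2c to −2.02 for Krt18, with a standard error of 1.34 for the latter, and all 10 were below 0. Without control ICM replicate 1, 3 of the 10 were called as smaller in SCNT, when 0.304% of all genes were. These were Krt18, Id2 and Krt8, with differences of −5.30, −4.67 and −4.17. This fit has 1 control ICM library, so the spread of that group cannot be measured. Replicate 1 was also set apart partly by Krt8 and Krt18, so their differences without it are no independent test. The 3 calls therefore do not show that the lineage difference was smaller in SCNT embryos.

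Before the response to the morpholinos was examined, the targets were read in every library. Mcrs1 held 219 and 294 TPM in control TE and 41.1 and 45.5 TPM in Mcrs1 MO TE (log2 change −2.53, limma adjusted p = 0.000868), and 253 and 310 TPM in control ICM against 86.8 and 73.4 TPM (−1.80, 0.00333, and −1.94 without control ICM replicate 1, 0.000386). Max held 34.5 and 28.5 TPM in control TE and 16.3 and 8.68 TPM in Max MO TE (−1.32, limma adjusted p = 0.39). It also stood at 17.6 and 15.7 TPM in Mcrs1 MO TE (−0.88, limma adjusted p = 0.543). In ICM it held 38.0 and 8.42 TPM in the controls and 6.82 and 0.443 TPM after Max MO (−2.51, 0.0397), a call that was lost without control ICM replicate 1 (−1.49, limma adjusted p = 0.177), and 14.4 and 9.25 TPM after Mcrs1 MO. Each target was below the controls of the same lineage in all libraries injected against it, and a morpholino need not lower the RNA of its target.

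In TE, both morpholinos gave lower Tfap2c, and both were measured against the same 2 control libraries. Of the 9 tested genes Tfap2c was the 1 called after Max MO, when 1.45% of all genes fell, and the 1 called after Mcrs1 MO, when 3.31% fell. It held 240 and 230 TPM in control TE, 61.6 and 80.3 TPM after Max MO and 83.7 and 60.9 TPM after Mcrs1 MO, so neither injected group overlapped with the controls. The log2 changes were −1.72 and −1.70, each with a standard error of 0.25 (limma adjusted p = 0.0206 and 0.00827). The control and injected libraries also differed in other ways. Annotated genes held 85.5% to 90.3% of TPM in the controls of both lineages and 93.6% to 94.4% in the injected libraries. Control TE replicate 1 had the least aligned sequence of all libraries, at 1.00 gigabases. The part of these differences was not tested. With 2 libraries a side the calls were not robust to leaving 1 out. That of Max MO was lost without either control TE or either Max MO TE library (limma adjusted p = 0.0530 to 0.157) and that of Mcrs1 MO without control TE replicate 1 or Mcrs1 MO TE replicate 2 (0.0732 and 0.105), with changes of −1.48 to −1.91.

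Tfap2c also fell in the ICM. It held 248.8 and 268 TPM in control ICM, 52.2 and 75.2 TPM after Max MO (log2 change −2.03, limma adjusted p = 0.000914) and 65.6 and 66.2 TPM after Mcrs1 MO (−1.95, 0.00375). It was again the 1 gene of the 9 called in each, when 15.1% and 5.21% of all genes fell. The control ICM libraries were alike in Tfap2c, and without replicate 1 the changes were −2.08 and −2.01 (limma adjusted p = 0.000842 and 0.00107). With the 3 ICM groups fitted alone the call for Mcrs1 MO was lost (limma adjusted p = 0.0663). Markers of the primitive endoderm (PrE), the other derivative of the ICM, summed to 78.6 and 264 TPM in Max MO ICM and 81.3 and 96.7 TPM in Mcrs1 MO ICM against 35.0 and 35.8 TPM in the controls. Of 5 tested, 2 were higher in each, when 970 and 547 of all 11219 genes were. ICM markers summed to 1636 and 2163 TPM after Max MO and 616 and 1339 TPM after Mcrs1 MO against 1806 and 3247 TPM. Their part in the result was not tested. The interaction between lineage and morpholino called none of the 9 for Max MO or for Mcrs1 MO, when 0% of all genes were called in either direction for each (limma, 1473 and 972 of all genes with an unadjusted p under 0.05). Without control ICM replicate 1, it called 5 as lower for Max MO, when 3.19% of all genes were, and 8 as lower for Mcrs1 MO, when 6.33% were. Lower here means a more negative change from control in TE than in ICM, not a lower level in TE. For Max MO the log2 changes in TE were −1.17, −1.56, −0.58, −0.22 and 0.78 for Cdx2, Gata3, Id2, Krt18 and Krt8. Those in ICM were 1.88, 0.40, 3.38, 3.95 and 3.64, measured against the 1 control ICM library left.

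**Figure D4:**
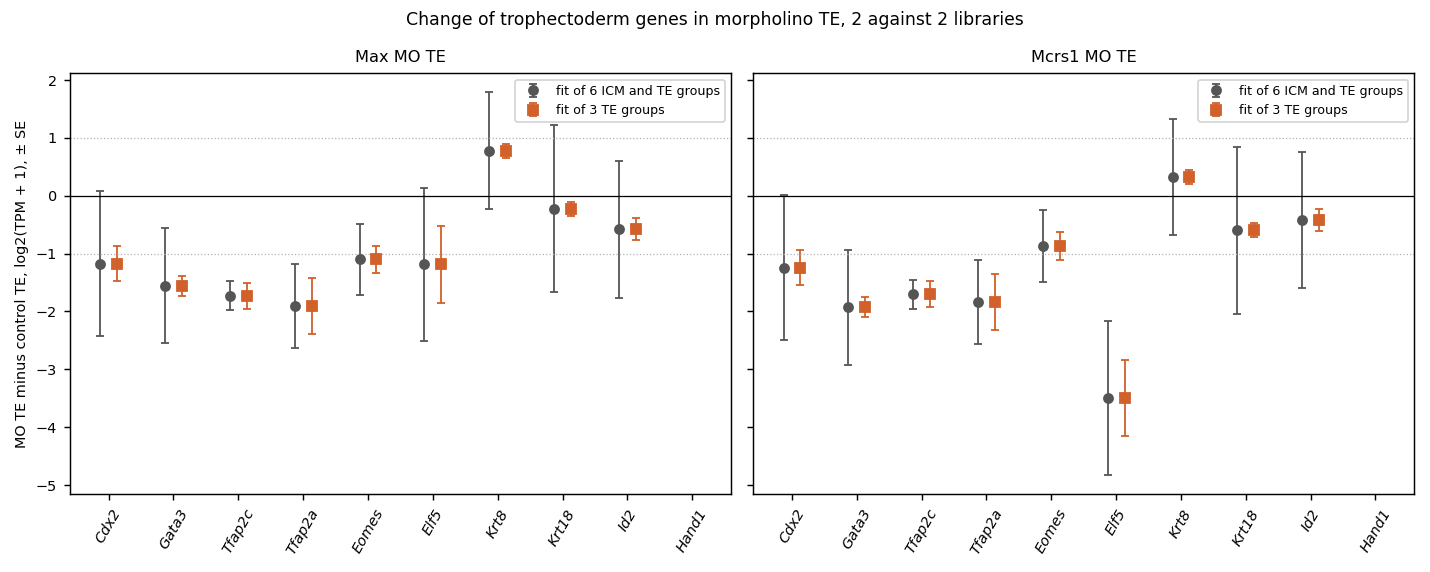
Log2 change of each gene between morpholino TE and control TE on the log2(TPM + 1) scale, with bars of 1 standard error, from the fit of all 6 fertilized groups (circles) and of the 3 TE groups alone (squares). Tfap2c lies at −1.72 after Max MO and −1.70 after Mcrs1 MO with short bars in both fits, and the bars of Krt8, at 0.78 after Max MO, are 1.01 in the first fit and 0.12 in the second.

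The other lineage factors had lower values in the injected TE than in control TE, without passing the test across the 6 fertilized groups. Gata3 held 1582 and 1979 TPM in control TE, 666 and 541 TPM after Max MO and 504 and 429 TPM after Mcrs1 MO. Cdx2 held 68.3 and 54.6 TPM, then 22.8 and 30.8 TPM and 31.4 and 20.3 TPM. Tfap2a held 12.6 and 8.87 TPM, then 2.39 and 1.83 TPM and 1.80 and 2.75 TPM. The libraries of injected embryos did not overlap with the controls for any of these.

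Their log2 changes after Max MO were −1.56 for Gata3, −1.17 for Cdx2 and −1.91 for Tfap2a (limma adjusted p = 0.418, 0.658 and 0.167). After Mcrs1 MO they were −1.93, −1.24 and −1.84 (0.258, 0.591 and 0.144). Eomes held 77.0 and 66.4 TPM in control TE, 35.96 and 30.0 TPM after Max MO and 37.6 and 39.8 TPM after Mcrs1 MO (−1.10 and −0.87, limma adjusted p = 0.349 and 0.42). Elf5, at 30.4 and 12.1 TPM in control TE, stood at 1.21 and 0.459 TPM after Mcrs1 MO (−3.50, limma adjusted p = 0.133) and at 15.3 and 3.86 TPM after Max MO, which overlapped with the controls (−1.19, 0.674).

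The keratins and Id2 stayed closer to the controls. Krt8 held 5944 and 5099 TPM in control TE, 9192 and 9671 TPM after Max MO and 6780 and 7001 TPM after Mcrs1 MO (0.78 and 0.32, limma adjusted p = 0.725 and 0.886). Krt18 held 12846 and 11171 TPM, then 9675 and 10866 TPM and 7742 and 8096 TPM (−0.22 and −0.60, limma adjusted p = 0.958 and 0.843). Id2 held 1287 and 1666 TPM, then 1152 and 837 TPM and 1138 and 1054 TPM (−0.58 and −0.42, limma adjusted p = 0.838 and 0.871). Hand1 was listed at 0 in both Max MO TE libraries and at 0 and 1.56 TPM in Mcrs1 MO TE.

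The spread of the control ICM enters the shared error of that fit. When the 3 TE groups were fitted alone, 5 of the 9 genes were called after each morpholino, all lower, when 6.81% of all genes were lower after Max MO and 10.8% after Mcrs1 MO. After Max MO these were Tfap2a, Tfap2c, Gata3, Cdx2 and Eomes (limma adjusted p = 0.0325, 0.0064, 0.00406, 0.0348 and 0.0198). After Mcrs1 MO they were Gata3, Tfap2c, Elf5, Cdx2 and Tfap2a (limma adjusted p = 0.000795, 0.0028, 0.00899, 0.0224 and 0.0281). Krt8 after Max MO had an adjusted p of 0.00801 in that limma fit and a change under 2-fold. In the fit of all 6 groups without control ICM replicate 1, 3 were called as lower after Max MO and 5 after Mcrs1 MO, when 4.86% and 8.45% of all genes were.

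TE markers summed to 21005 and 24648 TPM in control TE, to 21880 and 23515 TPM in Max MO TE and to 16824 and 17144 TPM in Mcrs1 MO TE. Without the 4 members among them the sums were 4208 and 2703 TPM, then 2324 and 2406 TPM and 1768 and 1599 TPM, so both injected groups were below the controls. ICM markers summed to 242 to 464 TPM in control TE, to 207 to 307 TPM in Max MO TE and to 510 to 680 TPM in Mcrs1 MO TE, higher than in the controls in both of the last. The part of these sums in the results was not tested. Among the lists, 1 of 16 other TE-associated genes fell in each, Aqp3, an aquaglyceroporin (−1.92 and −1.48, limma adjusted p = 0.0167 and 0.0145). Cited1, a transcriptional coregulator of the later trophoblast list, rose in each (3.65 and 3.68, limma adjusted p = 0.0226 and 0.0104). It was 1 of 5 tested, when 117 and 199 of all 11219 genes rose. Of 11 tested inputs to Cdx2, Sbno1, a factor of the Notch input, fell in each (−1.47 and −1.54, limma adjusted p = 0.0439 and 0.0267).

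In the ICM the direction of most other members depended on which control library was used. Cdx2 held 3.25 and 3.77 TPM in Max MO ICM and 28.6 and 17.1 TPM in Mcrs1 MO ICM, between the 57.7 and 0.222 TPM of the controls. The same held for Krt8, at 1510 and 3172 TPM after Max MO, between 4098 and 175 TPM in the controls, though Mcrs1 MO replicate 1 exceeded both at 5008 TPM. Without control ICM replicate 1, 4 genes were higher after Max MO (Krt18, Krt8, Id2 and Cdx2), when 12.7% of all genes were higher, and 6 after Mcrs1 MO, when 12% were. Without control ICM replicate 2 instead, 8 were lower after Max MO, when 19% of genes were lower, and 2 after Mcrs1 MO, when 5.78% were. Tfap2c was lower in all of these.

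Within the injected embryos the lineages were compared from their own levels, although the spread of the control ICM still entered the error of the fit. After Max MO, Eomes was the 1 of 9 genes higher in TE, when 4.48% of all genes were, at 35.96 and 30.0 TPM against 9.94 and 3.46 TPM in ICM (log2 change 2.28, limma adjusted p = 0.0444). After Mcrs1 MO none was called, when 0% of all genes were called in either direction (limma, 756 genes had an unadjusted p under 0.05). Mcrs1 MO ICM held 9182 and 12754 TPM of TE markers and Max MO ICM 3012 and 6228 TPM. In the fits without control ICM replicate 1 or replicate 2, 6 genes were higher in TE than in ICM after Max MO, when 9.49% and 9.75% of genes were. The call for Eomes was lost without any 1 of the other libraries (limma adjusted p = 0.0634 to 0.239).

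Finally, the 2 keratins were set against each other, a measure chosen after their values were seen and therefore given with no test. KRT8 and KRT18 pair in filaments, and over the 53 SCNT libraries their log2(TPM + 1) values correlated at r = 0.966 across stages that also share library and depth. The ratio of Krt18 to Krt8 in TPM was 1.44 to 4.68 at 8C, 1.12 to 2.36 in the morula, 1.20 to 2.27 in SCNT TE and 0.584 to 1.29 in SCNT ICM. In control TE it was 2.16 and 2.19, in Max MO TE 1.05 and 1.12 and in Mcrs1 MO TE 1.14 and 1.156. Control ICM replicate 1 had 2.51 and replicate 2 had 0.617, whereas Max MO ICM had 0.727 and 0.811. Mcrs1 MO ICM had 1.20 and 0.951, on both sides of Mcrs1 MO TE.

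**Figure D5:**
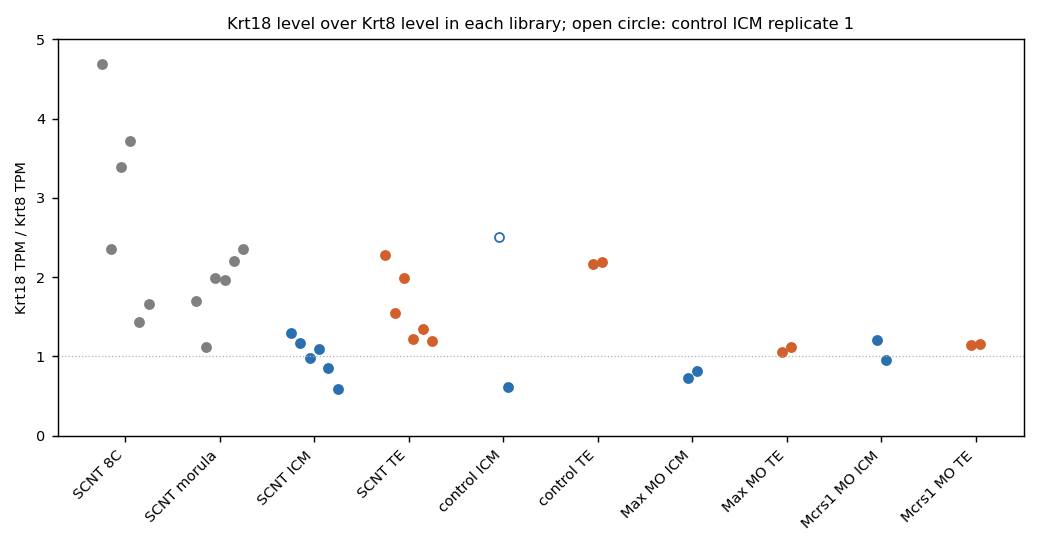
Ratio of Krt18 to Krt8 TPM per library in each group from 8C on, one point per library on a linear axis, with a dotted line at equal levels and an open circle for control ICM replicate 1. SCNT ICM lies at 0.584 to 1.29 and SCNT TE at 1.20 to 2.27, and both injected TE groups lie at 1.05 to 1.156, below the 2.16 and 2.19 of control TE.

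Over the 53 SCNT libraries, the genes with the profile most like that of Cdx2, by Pearson r of log2(TPM + 1) among 11858 tested genes outside the list, were Dctn1 (r = 0.886), AU021092 (0.886) and Sh3bp1 (0.880). For Gata3 they were Ctnna1 (0.935), Tdrp (0.931) and Arpc1b (0.920), and for Krt8 they included Capg (0.972) and Gss (0.960). For Elf5 they were Slc37a2 (0.834), Tmem82 (0.834) and Atp12a (0.827). Among the members themselves Krt8 followed Eomes at r = 0.900, and Hand1 ran against Id2 at r = −0.484. These correlations run mainly across stages and describe a shared time course.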

How the data were processed

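Polyadenylated RNA of 68 mouse libraries was measured by Smart-seq2. Per the labels, the submitters' notes name cutadapt 1.16, HISAT2, StringTie, Cufflinks and deepTools, with mm10 as the build, and the deposited tables have the layout that StringTie writes. For each gene the authors deposited coverage, FPKM and TPM. The deposited TPM sums to the same total in each library over all rows, unnamed assembled loci included, so it was treated as a relative signal on the TPM scale. Coverage divided by FPKM gave the aligned gigabases of each library. TPM was summed per gene symbol. Read counts were not analysed, and no counting interval can be given.

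Groups came from the labels. limma 3.58.1 (R 4.3.3) was fitted to log2(TPM + 1) with a variance trend. Genes whose mean TPM was below 1 over the fitted libraries were left out. The 53 SCNT libraries, the 12 fertilized libraries and the 24 ICM and TE libraries were fitted separately. Genes with an adjusted p under 0.05 and at least 2-fold were called. Fold changes on this scale understate those of low genes. In simulated data, log2 changes of 2 and 3 were recovered in 71% and 79% of cases for SCNT TE against ICM. These shares were 41% and 59% for Max MO TE against control TE, and 10% and 21% for the lineage difference. False calls were 13 of 163, 4 of 104 and 5 of 36. Everything else used Python 3.11.15 with pandas 2.3.3 and numpy 2.4.6.

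All 10 genes were counted in each comparison where they passed the filter, with values for those that were called or that a result turned on, the targets Max and Mcrs1 served as the check of the labels, and the lists of paralogs, other TE-associated genes, later trophoblast genes and inputs to Cdx2 were given as counts with at most 4 examples, those with the largest changes past the threshold. The members and lists were chosen with earlier results of these data known. Deviations of all 6 same-numbered pairs of SCNT ICM and TE correlated above 0.1 (r = 0.131 to 0.300). So did those of 6 hpa with 14 hpa (0.142 to 0.390) and of 14 hpa with TE (0.109 to 0.250), which are different stages. Differently numbered pairs were not compared, so these values do not show that ICM and TE were paired. The labels name no pairing, and the main fits used none. One 4C library is numbered by its label, which differs from its file. Promoters are those of RefSeq, GRCm38.p6. Results of some single genes that the naming rule selects are not reported here.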

Additional observations from a re-analysis of the deposited data

Results flagged for a closer look

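In the SCNT groups of 5 or 6 libraries, 62 combinations of gene and group were examined for a single library far from the rest of its group on the log2(TPM + 1) scale, and 6 had one. Only combinations with a library of at least 1 TPM were examined. Tfap2a at E2C and Hand1 in SCNT TE met this only through the library that was then flagged. The usual chance rate of about 1 in 20 therefore does not hold exactly here. Gata3 was at 20.1 TPM in 6 hpa replicate 1 and at 38.6 to 51.3 TPM in the other 5. Tfap2c was at 15.2 TPM in 6 hpa replicate 4, above the 10.1 to 11.4 TPM of the others. Id2 was at 16.3 TPM in 14 hpa replicate 1, where the others held 40.1 to 48.7 TPM. Tfap2a was at 2.57 TPM in E2C replicate 1, above 0.0619 to 0.529 TPM. In SCNT TE, Tfap2a was at 10.3 TPM in replicate 2, against 3.05 to 4.51 TPM, and Hand1 at 1.67 TPM in replicate 5, against 0.387 to 0.500 TPM.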

How the results depend on the processing

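Low values limit Cdx2, Elf5, Tfap2a and Hand1, which were listed at 0 in some ICM or TE libraries, and 2 libraries a side limit every fertilized comparison. The replicate number as a block changed no call and no count (9 genes called over the steps to TE, 2 for SCNT TE against ICM, 1 for each morpholino in TE). Of the 24 calls at the steps to TE, 11 of the 23 that could be tested were lost in replicates 1 to 3 alone and 1 in replicates 4 to 6 alone, 1 with a pseudocount of 0.1, 2 without a filter, 2 with quantile normalization and none with TPM rescaled over annotated genes or the largest row of a gene. A mean TPM of at least 5 left 22 of them tested and ended none of those.

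For SCNT TE against ICM the count of 2 became 1 with a pseudocount of 0.1 or a mean TPM of at least 5 (which leaves Cdx2 untested). It was also 1 in replicates 1 to 3 alone, where Tfap2a was called and Cdx2 and Gata3 were not. The count became 5 in replicates 4 to 6 alone. It became 0 with the ICM and TE libraries alone or, a choice made after seeing the data, without SCNT ICM replicates 1 to 3. It became 5 for each morpholino in TE with the 3 TE groups alone, 0 for Mcrs1 MO ICM with the 3 ICM groups alone, and 0 for Max MO TE against ICM with a pseudocount of 0.1, no filter or quantile normalization. The cause was not tested.

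With 1 replicate left out, the counts ranged from 0 to 2 for SCNT TE against ICM, 0 to 8 for control TE against ICM, 0 to 3 for the lineage difference, 0 to 3 and 0 to 5 for Max MO and Mcrs1 MO in TE, 1 to 8 and 1 to 7 in ICM, 0 to 6 for Max MO TE against ICM, and 0 to 5 and 0 to 8 for the responses. The highest counts came with one or the other control ICM library left out for both morpholinos in TE and Max MO TE against ICM, without control ICM replicate 2 for Max MO in ICM, and without control ICM replicate 1 for control TE against ICM, the lineage difference, Mcrs1 MO in ICM and both responses.

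These log2 changes took both signs when 1 replicate was left out. In Max MO ICM against control ICM they ranged from −3.71 to 1.88 for Cdx2, −4.06 to 0.96 for Elf5, −4.15 to 0.40 for Gata3, −1.93 to 3.38 for Id2, −2.61 to 3.95 for Krt18, −0.90 to 3.64 for Krt8 and −2.05 to 0.27 for Tfap2a. In Mcrs1 MO ICM they ranged from −1.34 to 4.24 for Cdx2, −2.34 to 2.68 for Elf5, −0.11 to 2.08 for Eomes, −1.82 to 2.73 for Gata3, −0.35 to 4.96 for Id2, −1.12 to 5.44 for Krt18 and −0.80 to 1.52 for Tfap2a. Elf5 ranged from −0.61 to 0.50 in SCNT TE against ICM, where it was −0.60 without SCNT ICM replicates 1 to 3, and from −0.89 to 4.13 in control TE against ICM. Tfap2c ranged from −0.094 to 0.42 in Max MO TE against ICM. In replicates 4 to 6 alone, Id2 from 4C to 8C was 0.33 and Tfap2c in SCNT TE against ICM 0.19.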
